A study of Rattus norvegicus with 9 samples.

Results

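The 10 genes described here are the PPAR nuclear receptors and the regulators of mitochondrial biogenesis: Ppara, Ppard, Pparg, Rxra, Rxrg, Ppargc1a, Ppargc1b, Esrra, Nrf1 and Tfam. They were taken as every non-control probe that the scanner output, or the accession annotated to it, names as one of them. This gave 12 probes, with Ppargc1b and Rxrg on 2 each, out of 41012 non-control probes for 35069 genes. RNA came from pulmonary arterial smooth muscle cells (PASMCs) of male SD rats at generation 4, hybridised to 9 Agilent arrays in 1 channel. There were 3 arrays of normoxia, 3 of hypoxia and 3 of hypoxia+quercetin. Per the labels' protocols, the hypoxic cells were kept in a sealed chamber at 1% oxygen and 5% carbon dioxide, and the controls in a normoxic incubator at 37 °C. The protocol text, the same for every sample, describes 24 h of serum deprivation followed by 24 h with quercetin, a plant flavonoid, or 0.1% DMSO, in medium that held 10% serum. No source used here states the dose of quercetin. Nothing in the labels says whether the 3 arrays of a group came from separate cultures, so each p-value covers only the spread among these samples, which may be technical. The cells are cultured cells in bulk, in which fewer cells of a type and less RNA per cell cannot be told apart.

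PPARs are nuclear receptors for fatty acids and their derivatives. Each binds DNA as a pair with a retinoid X receptor, encoded by Rxra, Rxrb or Rxrg, at repeats of the hexamer AGGTCA, and switches on genes of fat uptake, storage and oxidation. The coactivators PGC-1 alpha (Ppargc1a) and PGC-1 beta (Ppargc1b) bind no DNA themselves: they are recruited by PPARs, by the orphan receptor ERR alpha (Esrra) and by nuclear respiratory factor 1 (Nrf1), which activates genes of the respiratory chain and Tfam, the protein that packages and transcribes mitochondrial DNA. In vascular smooth muscle, Pparg is known as a restraint on proliferation.

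The probes on which the results turn are 60-base oligonucleotides, and their letters are given because several results belong to a probe rather than to a gene. Positions are those in the scanner files, on rat build rn4, and the letters are the files' own, with no base marked. The Pparg probe lies at chr4:151600180-151600239 on the plus strand and the Ppara probe at chr7:123807016-123807075 on the plus strand. The Nrf1 probe maps to chr4:57022244-57024140 on the plus strand, a span of 1897 bases for 60 letters, so its letters lie in more than 1 block of the genome. A further probe at chr4:57056460-57056519, downstream on the same strand, carries no member's name, but the file describes it as similar to human NRF1. The Ppargc1a probe lies at chr14:64365667-64365726 on the plus strand. The brighter Ppargc1b probe is at chr18:57280683-57280742 on the minus strand, and the dimmer one spans 79272 bases from 57301024 to 57380295 on the same chromosome and strand. Which exon or UTR each probe lies in was not worked out, since no annotation of rn4 was used here.
Pparg: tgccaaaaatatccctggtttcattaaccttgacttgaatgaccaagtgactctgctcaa
Ppara: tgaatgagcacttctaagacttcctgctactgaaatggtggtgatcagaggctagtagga
Nrf1: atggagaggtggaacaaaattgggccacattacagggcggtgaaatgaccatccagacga
NRF1-like probe: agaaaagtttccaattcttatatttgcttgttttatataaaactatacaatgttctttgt
Ppargc1a: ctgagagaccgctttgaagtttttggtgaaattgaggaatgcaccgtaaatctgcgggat
Ppargc1b, brighter: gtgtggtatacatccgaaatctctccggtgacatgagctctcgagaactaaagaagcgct
Ppargc1b, dimmer: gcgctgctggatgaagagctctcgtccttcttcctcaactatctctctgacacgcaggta

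The arrays were not equally bright. The 75th percentile of the scanner's processed intensity lay between 627 and 640 in normoxia, between 439 and 462 in hypoxia and between 450 and 504 with quercetin, and each array was scaled to its own. Levels below are log2 of the processed signal minus that percentile. The third hypoxia array and the first quercetin array had the fewest spots well above background, 53.4% and 54.4%, and the highest lowest signal that still counted as above background, 31.4 and 32.2 units, against 6.12 to 14.9 on the other 7. Of the 22106 genes tested, 35.3% were called higher and 28.9% lower in hypoxia than in normoxia, 26.9% higher and 31.6% lower in quercetin than in hypoxia, and 23% higher and 21.3% lower in quercetin than in normoxia. Called means a Benjamini-Hochberg adjusted p under 0.05 over all genes in limma, as throughout. Against labelling spike-ins instead of the percentile, the median of all genes in hypoxia minus normoxia moved from 0.10 to -0.40 and the split from 7802 higher and 6392 lower to 2671 and 10744. In quercetin minus normoxia it moved from 0.04 to -0.37 and from 5085 and 4709 to 1639 and 9824. All 8 smooth muscle markers were kept, with Tagln, Cnn1 and Myh11 among the 5 called higher in hypoxia and the 7 called lower with quercetin.

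Of the 10 members, 8 were tested, and Ppargc1a and Rxrg were not because neither was well above background on all 3 arrays of any group. In hypoxia against normoxia, 3 of the 8 were called: Ppara and Nrf1 higher and Pparg lower. In quercetin against hypoxia, 2 were called, Ppara and Nrf1, both lower. In quercetin against normoxia, 1 was called, Pparg, lower. These are smaller shares of the 8 than the 64.2%, 58.4% and 44.3% of all genes called in either direction in the 3 comparisons. The 2 comparisons of hypoxia share the hypoxia arrays, so a rise in the first and a fall in the second rest in part on the same values.

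**Figure D1:**
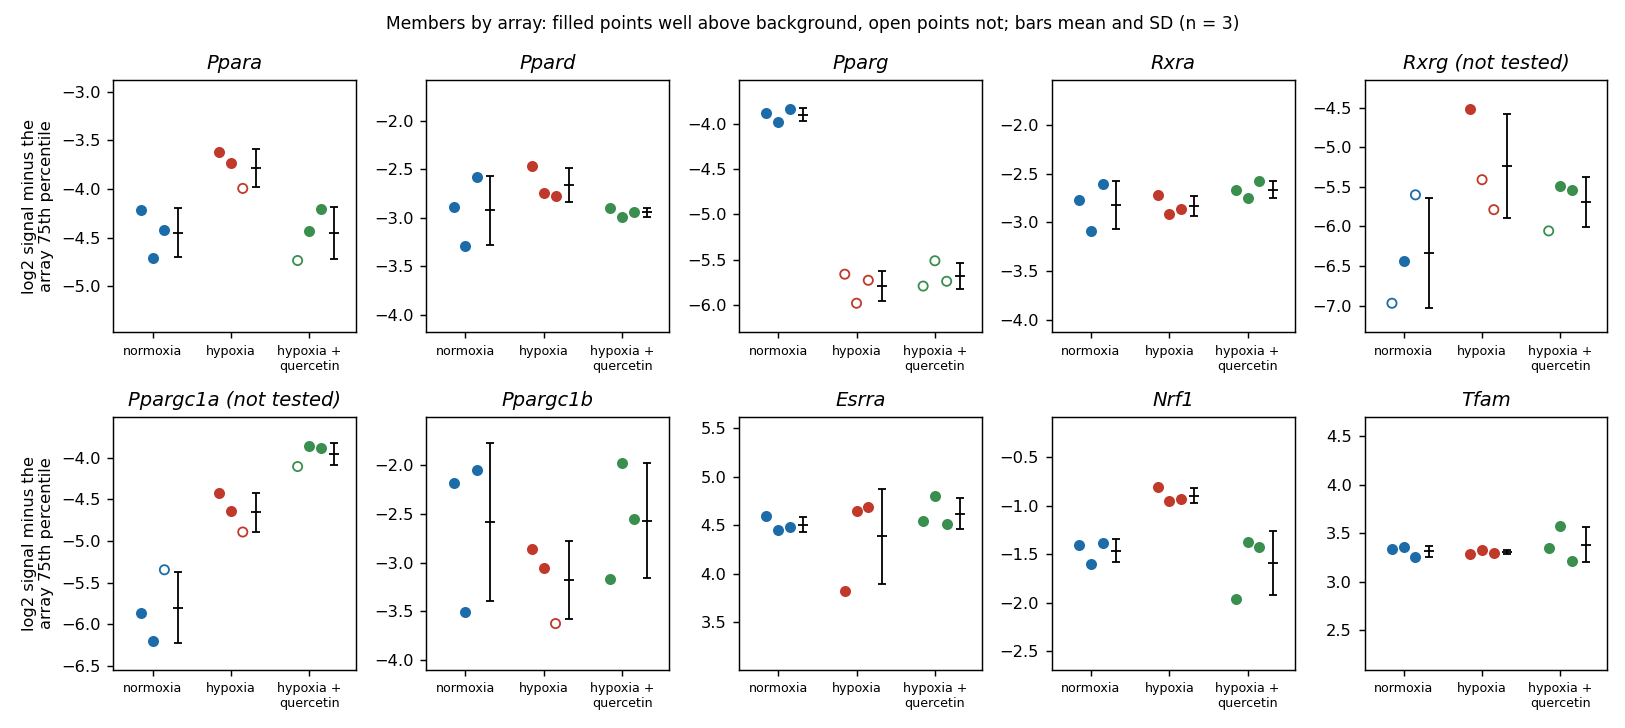
Level of each member on each array, as log2 of the processed signal minus the array's 75th percentile (vertical axis, a separate range for each gene), in the 3 groups (horizontal axis). Filled points were well above background and open points were not, and the bars give mean and SD of 3 arrays. Pparg was low on all 6 hypoxic arrays, Ppara and Nrf1 were highest in hypoxia alone, and Ppargc1a stepped up from normoxia to hypoxia to hypoxia+quercetin near the detection limit.

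Among the receptors, Pparg was the member with the largest change that was called. Its probe is printed in 10 spots on each array. The processed signal was 40.7, 37.7 and 41.0 units on the normoxia arrays, 8.13, 6.85 and 7.73 in hypoxia, and 8.36, 9.29 and 8.84 in hypoxia+quercetin. All 10 spots were well above background on each normoxia array, 1 unflagged spot in all on the 3 hypoxia arrays, and 0, 5 and 5 on the quercetin arrays. A flagged spot of the second hypoxia array, left out, was also above background. The groups of normoxia and hypoxia did not overlap, nor did normoxia and quercetin, while hypoxia and quercetin did. The probe passed the filter through normoxia alone, where it is high. On the third hypoxia array 9 of the 10 spots carry a substitute value that the scanner sets for spots near background. So do 6 of the unflagged spots on the first quercetin array. On the third hypoxia array, 1.54 units after subtraction were thus processed to 7.73. The spread and p-values of the processed signal rest in part on those substitutes. The scaled level was -3.90 ± 0.08 (SD, n = 3) in normoxia, -5.79 ± 0.17 in hypoxia and -5.68 ± 0.15 with quercetin. The difference was -1.89 ± 0.12 (SE, adjusted p = 6.6e-06) for hypoxia minus normoxia and -1.78 ± 0.12 (adjusted p = 2.2e-05) for quercetin minus normoxia. Because the probe did not count as above background on any hypoxic array, these are read as bounds that hold only for the processed signal. Within that handling, Pparg was at least 1.82-fold lower in hypoxia and at least 2.19-fold lower with quercetin. On the third hypoxia and first quercetin arrays the lowest scaled signal above background, -3.705 and -3.841, itself exceeded the normoxia mean. Each bound therefore comes from the other arrays of its group. Other ways of handling the background, given below, gave smaller differences or none. Quercetin minus hypoxia was 0.11 ± 0.12 (adjusted p = 0.45), between signals that were both not well above background, so no fold is given.

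The Pparg call depended on how the background was handled, and its normoxic signal after subtraction was smaller than the background itself. The cause of that dependence was not tested. The raw signal averaged 79.7, 76.6 and 112.7 units on the normoxia arrays over a background of 40.2, 40.3 and 72.6. In hypoxia it was 70.7, 72.2 and 73.8 over 62.7, 64.9 and 72.3, and with quercetin 77.7, 74.3 and 74.9 over 73.5, 65.1 and 65.9. The raw signal thus lay between 70.7 and 79.7 on all arrays but the third of normoxia. After subtraction it was 39.5, 36.3 and 40.0 units in normoxia, 8.02, 7.27 and 1.54 in hypoxia and 4.2, 9.2 and 9.04 with quercetin. The first and second normoxia arrays were on a slide of their own, scanned on another day, with a low background. The third normoxia array shared a slide, a scan day and a similar background with the 3 hypoxia arrays, and it had the highest raw signal of the 9, its scaled level of -3.84 lying above -5.66, -5.98 and -5.72. With slide as a block, so that only that array stands for normoxia, the difference was -1.95 (adjusted p = 2.6e-04).

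**Figure D2:**
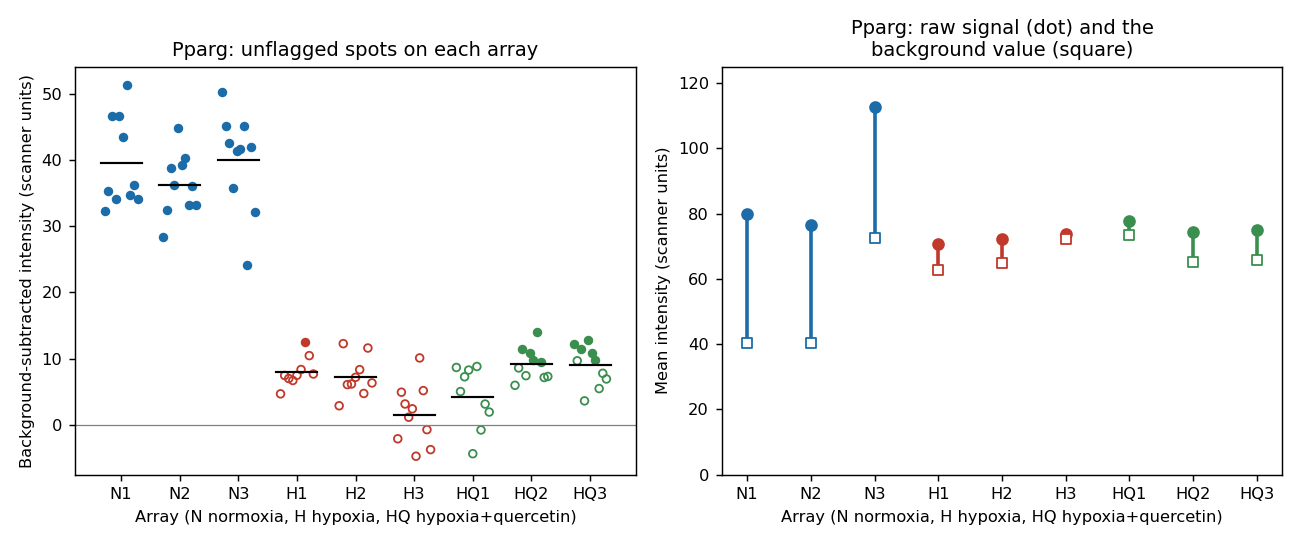
Pparg on each of the 9 arrays (horizontal axis, N normoxia, H hypoxia, HQ hypoxia+quercetin), in scanner units. On the left each point is an unflagged spot after background subtraction, filled where the scanner called it well above background, with a black line at the array's mean, and on the right the dot is the mean raw signal and the square the background value taken from it. The normoxia spots average 36.3 to 40.0 units and the others 1.54 to 9.2, while raw signals overlap except on the third normoxia array.

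With the plain background-subtracted signal the Pparg difference in hypoxia was -2.51 (adjusted p = 1.1e-04), and in the deposited log2 table it was -2.17 (adjusted p = 1e-04). With no subtraction it was 0.12 (adjusted p = 0.41). With normexp, which models signal over background and here adds an offset of 50 units, more than the whole Pparg signal, it was -0.43 (adjusted p = 0.55). In that correction the fitted background mean was -212 units on the second normoxia array and -222 on the third quercetin array, against -18.1 to 0.8 on the other 7. Those were the arrays whose lowest spots read -4580 and -5187.8 units after subtraction. With the lowest spots of each array floored, an alternative chosen after seeing the data, the Pparg difference was -0.05 (adjusted p = 0.58). Quercetin minus normoxia went from -1.78 to -2.17 with plain subtraction, 0.09 with none, -0.02 with normexp and -0.15 (adjusted p = 0.11) with the floor. In no handling was a difference between quercetin and hypoxia called for Pparg.

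**Figure D3:**
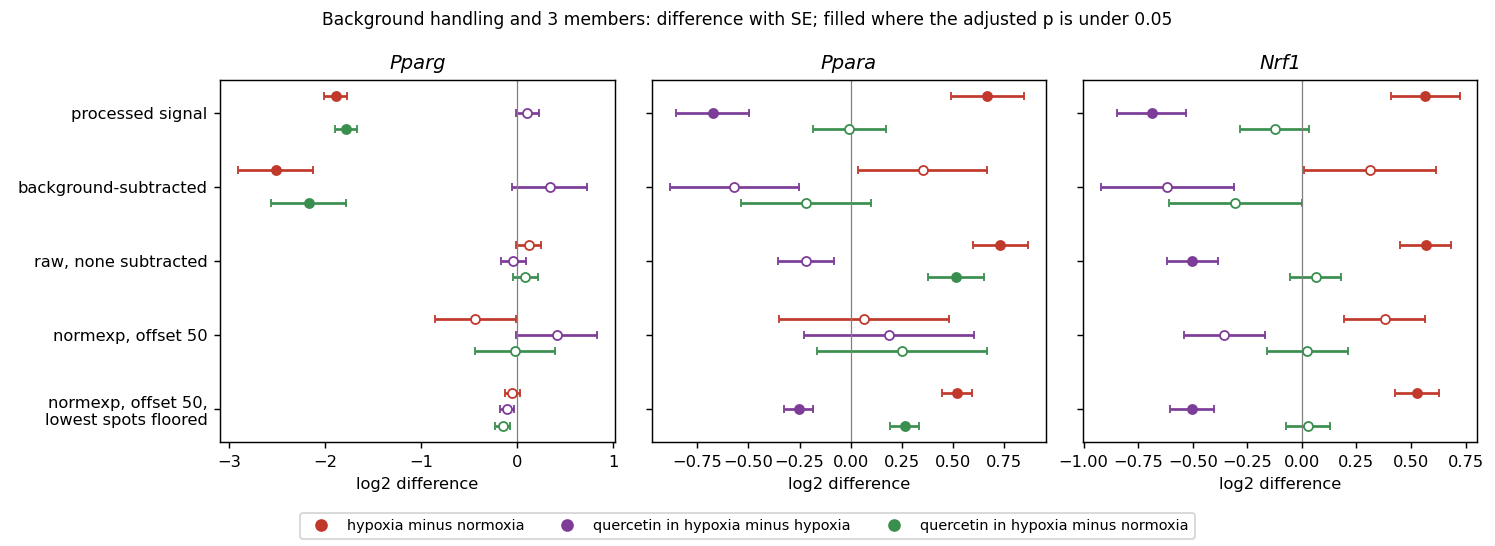
Difference of Pparg, Ppara and Nrf1 in the 3 comparisons (colours), in log2 units with SE (horizontal axis), under 5 ways of handling the background (vertical axis), filled where the adjusted p was under 0.05. Pparg keeps a called fall in hypoxia only where the background is subtracted with no offset, from -1.89 to -2.51.

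Ppara, the receptor known for driving fatty acid oxidation, was a dim member whose calls depended on the processing. The probe was not well above background on the third hypoxia array or the first quercetin array, so it passed the filter through normoxia alone. Its processed signal, also a mean over the unflagged ones of 10 spots, was 32.2, 22.7 and 27.3 units in normoxia. It was 33.5, 32.5 and 25.7 in hypoxia and 17.3, 19.6 and 25.6 with quercetin. Before scaling, the normoxia and hypoxia arrays overlapped. After scaling, the levels were -4.22, -4.71 and -4.42, then -3.61, -3.73 and -3.99, then -4.74, -4.43 and -4.20, and hypoxia overlapped with neither other group. Hypoxia minus normoxia was 0.67 ± 0.18 (SE, adjusted p = 0.011), quercetin minus hypoxia -0.68 ± 0.18 (adjusted p = 0.012) and quercetin minus normoxia -0.01 ± 0.18 (adjusted p = 0.98). The rise was not called against the spike-ins, at 0.17 (adjusted p = 0.47), or with slide as a block, at 0.64 (adjusted p = 0.09), or with plain background subtraction, at 0.35 (adjusted p = 0.41), or with normexp, at 0.06 (adjusted p = 0.96), though with the floor it was 0.52 (adjusted p = 1.4e-04). The fall with quercetin was still called against the spike-ins, at -0.58 (adjusted p = 0.026), but not with plain subtraction, at -0.57 (adjusted p = 0.18), or with no subtraction, at -0.22 (adjusted p = 0.22). No slide held both hypoxia and quercetin arrays, so in that comparison the slide cannot be told apart from the treatment.

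Ppard, the PPAR found in most tissues, did not pass in any comparison. Its signal was 60.7 to 97.5 units in normoxia, against 59.9 to 74.5 in hypoxia and 53.3 to 61.7 with quercetin. Its differences were 0.26 ± 0.17 (SE, adjusted p = 0.21), -0.28 ± 0.17 (adjusted p = 0.19) and -0.02 ± 0.17 (adjusted p = 0.94). Without the third normoxia array, the brightest of its group, hypoxia minus normoxia was 0.43 (adjusted p = 0.037).

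Of the partners, Rxra was well above background on every array and moved little. It read 70.0 to 96.4 units in normoxia, against 56.3 to 62.3 in hypoxia and 62.8 to 79.0 with quercetin, which after scaling gave -0.01 ± 0.13 (SE, adjusted p = 0.93), 0.17 ± 0.13 (adjusted p = 0.3) and 0.15 ± 0.13 (adjusted p = 0.38). Rxrg, the partner known from skeletal muscle and brain, was at the detection limit. Its first probe read 4.78 to 12.1 units in normoxia, against 7.4 to 17.95 in hypoxia and 6.94 to 10.2 with quercetin. Its second probe was above background on 1 array, the third of hypoxia, where it read 70.9 units against 2.17 to 9.3 on the other 8, and the first probe did not rise on that array. Rxrb, a further partner gene taken from the list of relatives, was called higher in hypoxia (0.91 ± 0.09, adjusted p = 6.3e-05) and lower with quercetin (-0.65 ± 0.09, adjusted p = 5.1e-04).

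Neither coactivator was called in the main fit. The Ppargc1a probe was well above background on 2 of 3 arrays in each group, so it was not tested. It read 10.3, 8.12 and 14.4 units in normoxia, 19.1, 17.3 and 13.8 in hypoxia, and 26.9, 29.1 and 31.9 with quercetin. The scaled levels of the 3 groups did not overlap: -6.20 to -5.35 in normoxia, then -4.89 to -4.42 in hypoxia, then -4.11 to -3.86 with quercetin. The quercetin arrays were also the highest before scaling, while normoxia and hypoxia overlapped there. In a fit of all 35069 genes with no filter on dim probes, hypoxia minus normoxia was 1.15 ± 0.23 (SE, adjusted p = 0.0065), quercetin minus hypoxia 0.70 ± 0.23 (adjusted p = 0.053) and quercetin minus normoxia 1.85 ± 0.23 (adjusted p = 0.0015). In each group, 1 of the 3 arrays behind those values was not well above background.

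Ppargc1b gave opposite signs on its 2 probes, and neither passed. The brighter probe read 132, 52.1 and 141 units in normoxia, 56.7, 52.1 and 33.1 in hypoxia and 51.4, 107.5 and 80.1 with quercetin, a spread within groups as wide as that between them. Its differences were -0.60 ± 0.44 (SE, adjusted p = 0.26), 0.61 ± 0.44 (adjusted p = 0.26) and 0.02 ± 0.44 (adjusted p = 0.98). The second normoxia array was the lowest of its group, and without it hypoxia minus normoxia was -1.06 (adjusted p = 0.036). The dimmer probe gave 0.52 ± 0.32 (adjusted p = 0.19), -0.43 ± 0.32 (adjusted p = 0.29) and 0.10 ± 0.32 (adjusted p = 0.83).

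Esrra and Tfam were bright and did not pass in any comparison. Esrra read 12975 to 14408 units in normoxia, 5820.5, 10813 and 10565 in hypoxia, and 10773 to 11803 with quercetin. Its differences were -0.12 ± 0.22 (SE, adjusted p = 0.65), 0.23 ± 0.22 (adjusted p = 0.39) and 0.11 ± 0.22 (adjusted p = 0.71). The first hypoxia array alone gave the negative sign: without it hypoxia minus normoxia was 0.16. Tfam read 5570 to 6099 units in normoxia, against 4015 to 4328 in hypoxia and 4382 to 5031 with quercetin, so all normoxia arrays were brighter before scaling. After scaling the levels were 3.31 ± 0.06 (SD, n = 3), 3.30 ± 0.02 and 3.38 ± 0.18, and hypoxia minus normoxia was -0.01 ± 0.10 (SE, adjusted p = 0.94), the tightest value among the members. Against the spike-ins it was -0.51 (adjusted p = 0.0013), so the call for Tfam changed with the scaling. In quercetin minus normoxia Tfam went from 0.07 (adjusted p = 0.64) to -0.34 (adjusted p = 0.014) in the same way.

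Nrf1 was higher in hypoxia than in both other groups after scaling. Its processed signal was 227, 196 and 224 units in normoxia, 234, 223 and 215 in hypoxia, and 118, 164 and 175 with quercetin. The signal itself was much the same in normoxia and hypoxia, and all 3 quercetin arrays lay below both. The scaled levels were -1.40, -1.60 and -1.39, then -0.81, -0.96 and -0.93, then -1.96, -1.37 and -1.43. Hypoxia minus normoxia was 0.56 ± 0.16 (SE, adjusted p = 0.014), quercetin minus hypoxia -0.69 ± 0.16 (adjusted p = 0.0059) and quercetin minus normoxia -0.12 ± 0.16 (adjusted p = 0.56). The rise in hypoxia was not called against the spike-ins, at 0.06 (adjusted p = 0.74), with slide as a block, at 0.49 (adjusted p = 0.13), with plain subtraction, at 0.31 (adjusted p = 0.45), or with normexp, at 0.38 (adjusted p = 0.17), though with the floor it was 0.53 (adjusted p = 0.0011). The fall with quercetin was -0.59 (adjusted p = 0.0083) against the spike-ins, and -0.62 (adjusted p = 0.13) with plain subtraction.

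The neighbouring probe described as similar to human NRF1, chosen for its description after its values were seen, moved the other way. It read 95.6, 95.5 and 104 units in normoxia, 41.4, 38.1 and 35 in hypoxia and 64.5, 63.6 and 74.6 with quercetin, with no overlap between any of the groups. Hypoxia minus normoxia was -0.86 ± 0.10 (SE, adjusted p = 1.3e-04) and quercetin minus hypoxia 0.71 ± 0.10 (adjusted p = 4.6e-04). Whether both probes report the same transcript was not tested, so the direction of Nrf1 holds for the named probe.

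**Figure D4:**
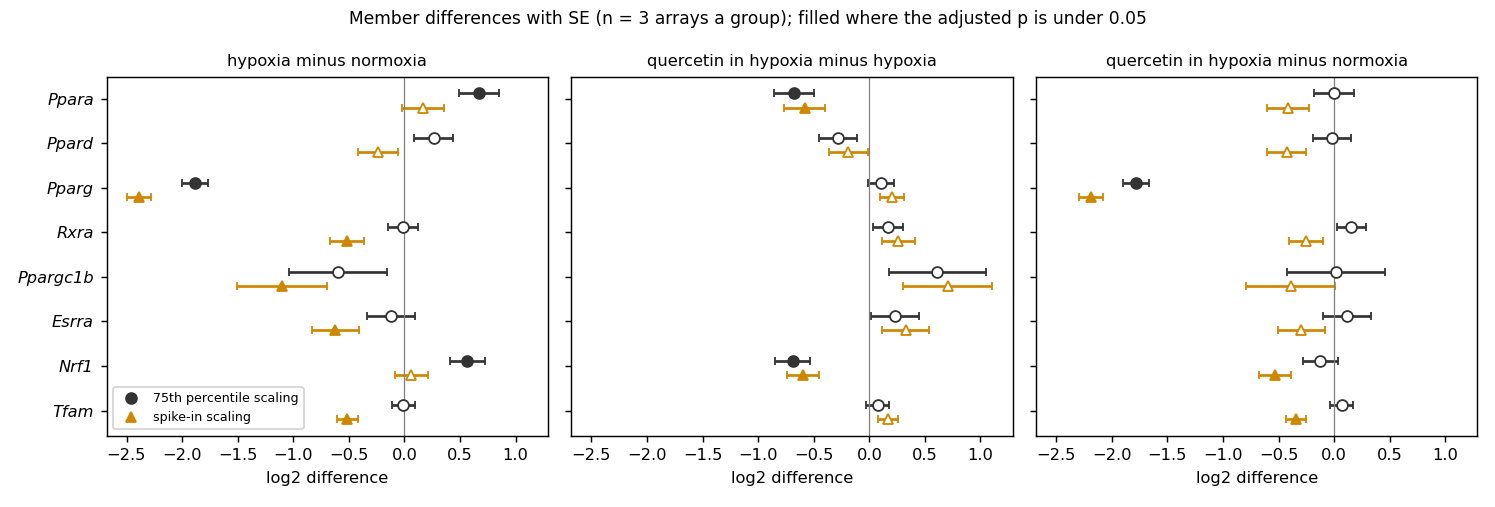
Differences of the 8 tested members in the 3 comparisons (panels), as log2 units with SE (horizontal axis), with each array scaled to its 75th percentile (circles) or to the labelling spike-ins (triangles), filled where the adjusted p was under 0.05. In hypoxia minus normoxia the spike-in values lie about 0.5 lower for every member, so that 5 members are called, all lower, and the rises of Ppara and Nrf1 are not called.

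The choice of scaling set which members were called in hypoxia. Against the spike-ins, 5 members were called, all lower: Pparg at -2.39, Ppargc1b at -1.10, Esrra at -0.62, Tfam at -0.51 and Rxra at -0.52. In quercetin minus normoxia, 3 were called, all lower: Pparg at -2.19, Nrf1 at -0.53 and Tfam at -0.34. In quercetin minus hypoxia the same 2 members, Ppara and Nrf1, were called lower under both scalings. Pparg was called lower in hypoxia under each of the scalings run, from -2.39 to -1.89, with the processed signal.

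The genes whose scaled levels followed Pparg most closely over the 9 arrays were Ltbr, Wdr12 and Slc18b1, with a Pearson r of 0.993 to 0.994, the highest among the 11797 tested genes with a symbol. Ltbr, a receptor of the tumour necrosis factor family, averaged 2.22, 1.49 and 1.5 in the 3 groups. Wdr12, a ribosome assembly factor, averaged 1.38, -0.30 and -0.14. For Ppara the closest was Golph3l (r = 0.950) and for Nrf1 Pabpc4 (r = 0.976), a poly(A)-binding protein. These correlations are descriptions over arrays that share their 3 groups and their scaling.

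Markers of other cell types were read beside the Pparg result, since Pparg is abundant in fat cells and macrophages. Of the 5 adipocyte markers with a probe, 4 (Adipoq, Plin1, Lep and Cidec) were not above background on all arrays of any group. The summed level of the 5 was 0.05 to 0.07 times the 75th percentile in normoxia, against 0.06 to 0.11 in hypoxia and 0.06 to 0.08 with quercetin, and because those 4 lie near each array's own background a fall in them could not have been seen. The remaining marker, Cfd, also dim, was 0.01 in hypoxia minus normoxia (adjusted p = 0.97). With quercetin it was called lower, at -0.89 against hypoxia (adjusted p = 0.025) and -0.875 against normoxia (adjusted p = 0.034). With normexp neither was called, at 0.31 and 0.23. The summed level of 6 macrophage markers was 3.26 to 4.83 in normoxia, against 2.67 to 2.90 in hypoxia and 2.26 to 2.35 with quercetin, with Cd163 not kept. Cd14 dominates that sum and was -0.95 in hypoxia against normoxia (adjusted p = 0.0021), while Lyz2 rose by 4.10 (adjusted p = 3.4e-05). With quercetin against normoxia 2 of the 5 tested were higher, Lyz2 at 2.45 (adjusted p = 0.001) and Cd68 at 1.23 (adjusted p = 2e-04), and 1 lower, Cd14 at -1.58 (adjusted p = 2.7e-04). Of 5 fibroblast markers, 3 were called lower in hypoxia, with Dcn at -4.24 (adjusted p = 1e-04) and Lum at -3.62 (adjusted p = 1.8e-05), though the sum of the list, which Col1a1 dominates, went from 318 to 381 up to 510 to 597. Krt18 and Krt7, keratins of simple epithelia, were called higher in hypoxia, at 4.93 and 3.12, while the epithelial markers Epcam and Cdh1 were not kept. The part of these markers in the Pparg, Ppara or Nrf1 values was not tested.

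Around the members, 5 gene lists drawn from textbook knowledge were counted. Of all genes tested, 64.2%, 58.4% and 44.3% were called in the 3 comparisons, in either direction. The shares were 80%, 60% and 80% for the relatives and 53.8%, 46.2% and 23.1% for the coactivators and corepressors. They were 44.4%, 50% and 55.6% for fatty acid targets and 65%, 65% and 50% for mitochondrial DNA expression. For oxidative targets they were 41.7%, 62.5% and 54.2%. Against the spike-ins, most called genes of the whole array were also lower in hypoxia. The PPAR relatives list has 7 genes, of which 5 were tested. In hypoxia 2 were called higher, Rxrb and Nr1h2, and 2 lower, Nr1h3 and Pprc1, and the fifth, Esrrb, did not pass. The list median, -0.40 against 0.10 for all genes, is the value of Esrrb itself, whose probe was not well above background on any of the 6 hypoxic arrays. With the floor it was 0.34 and with no subtraction 0.63, so neither a level nor a direction is read from Esrrb or from that median. Nr1h3, the cholesterol-sensing receptor LXR alpha that Pparg is known to induce in macrophages, had levels of -2.04, -1.31 and -2.47 in normoxia, -3.97, -4.25 and -4.27 in hypoxia and -5.05, -5.03 and -6.31 with quercetin. Hypoxia minus normoxia was -2.23 (adjusted p = 0.0013), and with normexp -1.04 (adjusted p = 0.059). Quercetin minus hypoxia was -1.3 (adjusted p = 0.019), between groups with 1 and 2 arrays not above background, and it was not called with normexp, at 0.25 (adjusted p = 0.67), with the floor, at -0.28 (adjusted p = 0.22), or with no subtraction, at -0.22 (adjusted p = 0.38). Pprc1, the third coactivator of the PGC-1 family, fell by 0.73 in hypoxia (adjusted p = 9.7e-04) and was 0.05 apart between quercetin and hypoxia (adjusted p = 0.76).

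Of 13 tested coactivators and corepressors, 2 were called higher and 5 lower in hypoxia, and 5 higher and 1 lower with quercetin against hypoxia. The list medians were -0.35 and 0.21, against 0.10 and -0.08 for all genes. Sirt1, the deacetylase that activates PGC-1 alpha, had levels of -2.91, -2.65 and -3.08 in normoxia, -4.70, -4.59 and -4.97 in hypoxia and -3.63, -3.05 and -3.52 with quercetin. It fell by 1.87 ± 0.18 (SE, adjusted p = 5.5e-05) and rose by 1.36 ± 0.18 (adjusted p = 3.8e-04), without overlap between hypoxia and either other group, but with normexp it was -0.60 (adjusted p = 0.27) and 0.66 (adjusted p = 0.23). Nrip1, the corepressor RIP140 that opposes oxidative genes, moved likewise, -1.13 (adjusted p = 2.3e-05) and 1.35 (adjusted p = 1.3e-05), as did Kat2a, the acetylase of PGC-1 alpha, at -0.76 (adjusted p = 4.9e-04) and 0.92 (adjusted p = 2e-04), though with normexp the Kat2a fall was -0.51 (adjusted p = 0.077). Prkaa1, the alpha 1 catalytic subunit of AMP-activated kinase, went the other way, 0.85 (adjusted p = 0.001) and -1.19 (adjusted p = 2e-04). Ncoa2, a coactivator of nuclear receptors, was higher by 0.74 in hypoxia (adjusted p = 5.2e-04), by 0.24 (adjusted p = 0.15) against the spike-ins and by 0.35 (adjusted p = 0.3) with normexp. Prkaa2, the alpha 2 subunit, was -0.35 (adjusted p = 0.12) in hypoxia and 0.79 (adjusted p = 0.0052) with quercetin, or 0.62 (adjusted p = 0.054) with normexp. Against the spike-ins 11 of the 13 were called lower in hypoxia and 1 higher.

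Of 26 fatty acid genes known as PPAR targets, 18 were tested, and 7 had a probe that was not kept, among them Fabp4, Cd36 and Adipoq. In hypoxia 4 were called higher and 4 lower (median -0.03), in quercetin against hypoxia 3 higher and 6 lower (median -0.30), and in quercetin against normoxia 1 higher and 9 lower (median -0.41 against 0.04 for all genes). Cpt1a, the enzyme that admits long-chain fatty acids to the mitochondrion, had levels of -0.69, 0.71 and -1.11 in normoxia, -3.55, -3.60 and -3.79 in hypoxia and -2.15, -1.26 and -2.08 with quercetin. It fell by 3.29 ± 0.44 (SE, adjusted p = 3e-04) and rose by 1.81 ± 0.44 (adjusted p = 0.0076), and its second probe gave -2.49 and 1.44. The rise with quercetin was not called with normexp, at 1.08 (adjusted p = 0.053), with the floor, at 0.87 (adjusted p = 0.053), or with no subtraction, at 0.89 (adjusted p = 0.065), and the fall was then -1.99 to -1.92. Cpt1b, the muscle form, fell by 2.05 ± 0.11 (adjusted p = 3.6e-06) and rose by 1.86 ± 0.11 (adjusted p = 7e-06), but its second probe gave -0.35 and 0.33. Pdk4, the kinase that shuts pyruvate dehydrogenase, was higher by 1.06 ± 0.12 (adjusted p = 1.2e-04) in hypoxia, and by 0.60 (adjusted p = 0.096) with normexp. Acadm and Hadhb, enzymes of beta oxidation, fell by 0.58 (adjusted p = 3.7e-04) and 0.38 (adjusted p = 0.0051), and Acadl, of the same pathway, rose by 0.42 (adjusted p = 0.0035) before falling by 0.88 (adjusted p = 8.3e-05) with quercetin. In hypoxia Acadl was -0.08 (adjusted p = 0.54) against the spike-ins, and with normexp neither Acadl (adjusted p = 0.073) nor Hadhb (adjusted p = 0.098) was called. In quercetin against normoxia, 14 of 18 were called lower against the spike-ins, but with scan day as a block 1 was higher and 3 lower, and with normexp 3 were lower.

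**Figure D5:**
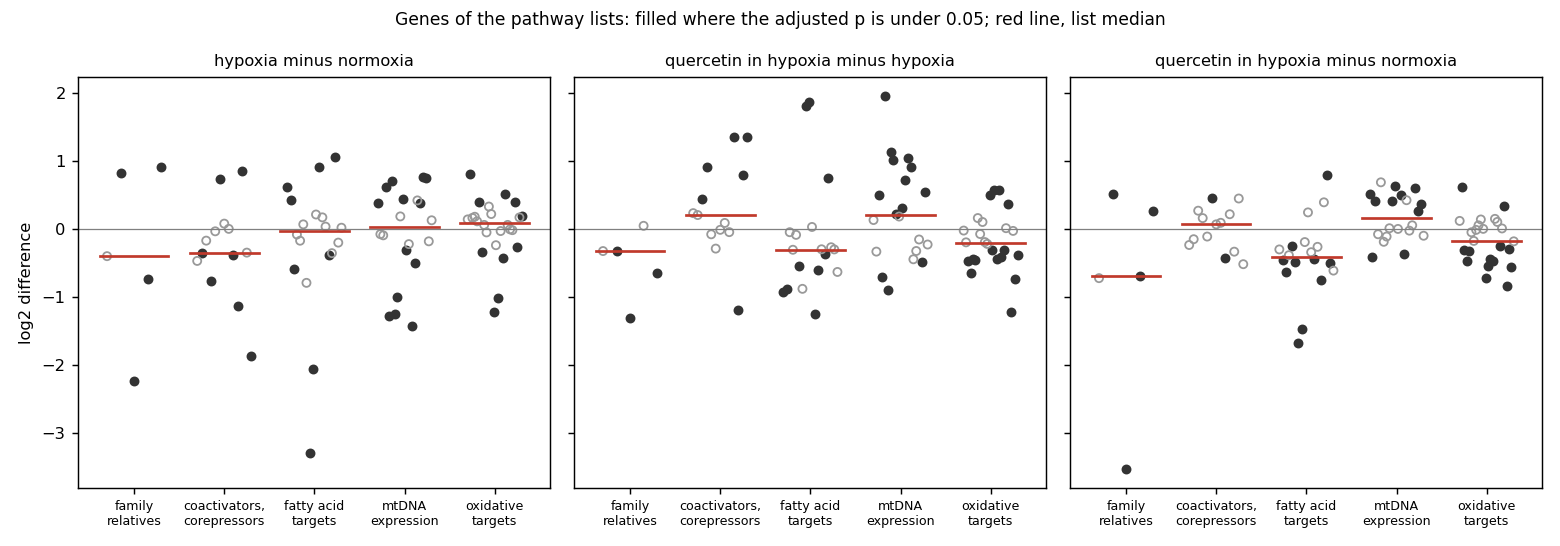
Difference of each tested gene of the 5 lists (horizontal axis) in the 3 comparisons (panels), in log2 units (vertical axis) after scaling to the 75th percentile, filled where the adjusted p was under 0.05, with the list median in red. Genes of every list lie on both sides of 0 in hypoxia, and the lowest points there are Cpt1a at -3.29 and Nr1h3 at -2.23.

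All 20 genes of mitochondrial DNA copying and expression, the process in which Tfam acts, were tested. In hypoxia 7 were called higher and 6 lower (median 0.03), in quercetin against hypoxia 10 higher and 3 lower (median 0.20), and in quercetin against normoxia 8 higher and 2 lower (median 0.16). Ssbp1, the single-strand binding protein of mitochondrial DNA, had levels of 3.60, 3.72 and 3.47 in normoxia, 2.08, 2.25 and 2.21 in hypoxia and 3.36, 2.99 and 3.34 with quercetin. It fell by 1.42 ± 0.12 (SE, adjusted p = 3e-05) and rose by 1.05 ± 0.12 (adjusted p = 1.8e-04), as did Mterf3, a regulator of mitochondrial transcription, at -1.001 (adjusted p = 1.4e-04) and 1.01 (adjusted p = 1.6e-04). Polrmt, the mitochondrial RNA polymerase, was -0.22 (adjusted p = 0.065) in hypoxia and 0.72 (adjusted p = 3e-04) with quercetin, or 0.55 (adjusted p = 0.056) with normexp. Mgme1, a mitochondrial exonuclease, did not exceed background on the hypoxia arrays, and 2 of 3 quercetin arrays measured it. In the processed signal its log2 difference with quercetin was 1.96 ± 0.26 (SE, adjusted p = 3.5e-04). Raising the hypoxia arrays to their lowest signal above background left it 1.86-fold higher. That fold is no bound, since the first quercetin array was not above background either. With normexp that log2 difference was 0.68 (adjusted p = 0.26), and with the floor 0.29 (adjusted p = 0.016). Tk2 and Top1mt were higher in hypoxia by 0.76 each (adjusted p = 2.4e-04 and 1.9e-04), but by 0.26 and 0.25 (adjusted p = 0.14 for both) against the spike-ins, where 11 of the 20 were called lower.

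Of 24 oxidative metabolism genes known as targets of NRF1 and ERR alpha, all were tested. In hypoxia 5 were called higher and 5 lower (median 0.09), and in quercetin 4 higher and 11 lower against hypoxia (median -0.21) and 2 higher and 11 lower against normoxia (median -0.18). With quantile normalization, quercetin against hypoxia gave 7 higher and 5 lower (median -0.04), and hypoxia against normoxia 2 higher and 8 lower (median -0.15). With scan day as a block, quercetin against normoxia gave 1 higher and 4 lower. Cycs, cytochrome c and a classic NRF1 target, had levels of 5.07, 5.24 and 4.79 in normoxia, 3.83, 3.83 and 3.77 in hypoxia and 4.30, 4.26 and 4.36 with quercetin. It fell by 1.22 ± 0.12 (SE, adjusted p = 4.7e-05) while the named Nrf1 probe rose, and its other probes gave -1.83 and -2.32. Mdh2, of the citric acid cycle, fell by 1.01 (adjusted p = 9.2e-05). Tspo, a protein of the outer mitochondrial membrane, was 1.22 lower with quercetin than in hypoxia (-1.22 ± 0.10, adjusted p = 3e-05), and so was Uqcrc2 of complex III by 0.73 (-0.73 ± 0.08, adjusted p = 1e-04). Subunits of the ATP synthase, Atp5f1a, Atp5f1b and Atp5mc1, were each lower with quercetin than in hypoxia, by 0.43 to 0.65, and none passed in hypoxia. With quantile normalization Atp5mc1 was -0.16 (adjusted p = 0.14). Alas1, the first enzyme of haem synthesis, rose by 0.81 (adjusted p = 1.8e-04) in hypoxia and Sdha of complex II by 0.52 (adjusted p = 3.5e-04), which against the spike-ins was 0.02 (adjusted p = 0.9). Against the spike-ins 19 of 24 were lower in hypoxia and 1 higher.

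RefSeq promoter windows of the rat build GRCr8, from 250 bases before to 50 after the start, were held for 9 of the members, 10 windows in all since Pparg has 2. Both strands were searched for exact matches to TGCGCA, a part of the NRF1 site, to AGGTCA and to its direct repeat with 1 base between. TCAAGGTCA, the ERR element, and ACGTG, a form of the core of the hypoxia element, were searched in the same way. The AGGTCA hexamer lies within TCAAGGTCA and within the repeat. The only match in the 10 windows was TGCGCA in the Esrra window, chr1:213543256-213543555 on the minus strand, at position -112 from the start. Of all 33469 windows, 7.2% hold TGCGCA, 16.2% AGGTCA, 19.3% ACGTG, 0.433% TCAAGGTCA and 0.054% the repeat. The windows of the called members Pparg, Ppara and Nrf1 held none of these exact letters, which says nothing of sites elsewhere. Because TGCGCA is only a part of the NRF1 site, the search missed ggcgcatgcgcg in the Ppara window, which resembles the longer site. GCGTG, another form of the hypoxia core, was not searched and occurs in the Ppara and Nrf1 windows. Neither presence nor absence of an NRF1 site or a hypoxia element is therefore read from this search, for Esrra, Ppara or any other member.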

How the data were processed

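The scanner software was Agilent Feature Extraction 10.7.3.1 with 1 channel, per the file headers. The deposited intensity per spot (processed, raw mean, background-subtracted and background) is the authors' scanner output, with rn4 positions. The authors' deposited log2 value table served as an alternative, and no source used here states how it was made. The labels describe a microRNA labelling kit, while the files hold gene expression probes.

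Control spots (1639) and 71 to 148 outlier spots per array were left out, and spots of a probe were averaged. The log2 processed intensity minus each array's 75th percentile was fitted for all 9 arrays with limma 3.58.1 (R 4.3.3), and tests were two-sided. Of the probes, 26653 (65%) were kept because every array of some group showed them well above background (for a probe of several spots, most unflagged spots). Each gene was read from its brightest kept probe. Names came from RefSeq GRCr8 (18028 probes by accession, 3168 by symbol, 400 by synonym). For a fold bound, each dim array was raised to its lowest signal that counted as above background, and the bound holds for the processed signal only. The number of arrays limits the precision.

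All members are described, and from each list up to 6 genes with the smallest adjusted p in any comparison. The ATP synthase subunits and Fabp4, Cd36 and Adipoq, targets without a kept probe, were named after their values were seen. Members and lists were chosen with earlier results of these data known.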

Additional observations from a re-analysis of the deposited data

How the results depend on the processing

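Of the member values recomputed under up to 25 alternatives, 176 of 197 in hypoxia minus normoxia, 182 of 189 in quercetin minus hypoxia and 181 of 189 in quercetin minus normoxia stayed on their side of the threshold. Signs changed in 18, 8 and 31 values that passed in neither setting, and in 1, 1 and 4 where the main or the alternative value passed. Most members were not called in the main fit to begin with, so these shares are no measure of robustness. With normexp, 6724, 6166 and 3171 genes were called in the 3 comparisons, and 0 members in each (limma, 0 also at an unadjusted p under 0.05), with Ppara at 0.188 in quercetin minus hypoxia. With the lowest spots floored, chosen after seeing the data, Ppara was 0.265 in quercetin minus normoxia. With plain subtraction, 8373, 7083 and 4374 genes were called, and 1 member in hypoxia minus normoxia and 0 in quercetin minus hypoxia (0 unadjusted). With no subtraction, Pparg was 0.122 in hypoxia minus normoxia and 0.085 in quercetin minus normoxia, Ppara was 0.515 in the latter, and 1 member was called in quercetin minus hypoxia and 2 in quercetin minus normoxia. Against the spike-ins, 5 members were called in hypoxia minus normoxia and 3 in quercetin minus normoxia, with Tfam at -0.343. With only the 5 members above background on all 9 arrays, which leaves out Pparg, Ppara and Ppargc1b, 1, 1 and 0 were called (0 unadjusted in the last). With no filter, 2 were called in quercetin minus normoxia. With slide or scan day as a block, the same fit for hypoxia minus normoxia, 1 member was called there. With scan day as a block, 5818 genes were called in quercetin minus normoxia, which slide as a block cannot give. Leaving out an array gave 12335 to 14413, 10998 to 14036 and 7699 to 9880 genes, and 3 to 4, 2 to 2 and 1 to 1 members. Whether replicate numbers pair the samples cannot be decided from so few arrays. Deviations from the group means correlated at -0.267 to 0.019 between same-numbered arrays and at -0.093 to 0.25 between the others. The replicate block gave 13201, 11976 and 8513 genes and 3, 2 and 1 members. The causes of these shifts were not tested. Signals near the background limit Pparg, Ppara, Ppargc1a and Rxrg.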
